A study of Mus musculus with 24 samples.

Results

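The comparison described here sets T6E cells that carried DNMAML against T6E cells that carried the empty vector MigR1, both kept in DMSO for 6 hours. It rests on 6 of the series' 24 arrays, 3 per group, chosen by sample title. T6E cells are a mouse line of T-cell leukaemia that needs Notch1 to grow. MigR1 is a retroviral expression vector, and DNMAML, a dominant negative Mastermind-like (MAML) protein, was brought into the same line, per the labels by transfection. DMSO, the solvent, was given to both groups. Groups with compound E, a gamma-secretase inhibitor (GSI), received 1 uM for the same 6 hours, and 2 of them, MigR1-GSI and DNMAML-GSI, are used below for direct comparisons. The other 4 groups, with ICN1 or R1984A, enter the common estimate of the spread and the choice of probe sets. The sources used here do not give how long the cells had carried each construct or whether they were a pool or a clone, so 6 hours is the length of the DMSO or GSI exposure and not that of the DNMAML block.

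Notch receptors are cut by gamma-secretase after they bind a ligand, and the freed intracellular part moves to the nucleus. There it joins the DNA-binding protein RBPJ and recruits Mastermind-like, which brings histone acetyltransferases and switches target genes on. DNMAML keeps the part of Mastermind-like that binds this complex and lacks the part that activates, so it occupies the complex without activation. In developing T cells Notch1 signalling sets T-cell fate, and in T-cell leukaemia it sustains Myc and cell growth.

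All values are deposited log2 expression values of 1 probe set per gene for 19938 genes, so a difference of 1 is a doubling of signal. A gene was called, or said to rise or fall, when limma gave a Benjamini-Hochberg adjusted p under 0.05 over all 19938 genes. Array medians were 3.95, 4.01 and 4.12 in MigR1-DMSO and 3.95, 3.90 and 4.05 in DNMAML-DMSO, and values near these medians are close to background. T-cell identity genes had array means of 7.53 to 7.73 in MigR1-DMSO and 7.66 to 7.82 in DNMAML-DMSO over 10 measured genes, Cd3e, Cd3g, Cd3d and Lat among the bright ones. Summed marker levels of other cell types were low and overlapped between the groups, with array means of 3.42 to 3.49 against 3.38 to 3.64 for 13 B-cell markers and 3.36 to 3.39 against 3.32 to 3.39 for 19 myeloid markers. The ranges were 3.66 to 3.83 against 3.61 to 3.79 for 9 erythroid and megakaryocyte markers, 3.20 to 3.29 against 3.18 to 3.32 for 11 natural killer and innate markers, and 4.48 to 4.56 against 4.44 to 4.60 for 15 stromal and epithelial markers. Natural killer-defining Ncr1, Klrb1c and Eomes were not called. In RNA from a whole culture, fewer cells that express a gene and less of its RNA per cell cannot be told apart. The labels do not tell whether replicates were separate cultures. The p-values then measure only how much these samples vary, which may be technical variation, and the number of arrays limits the precision.

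DNMAML changed 386 genes, 220 higher (1.1% of those tested) and 166 lower (0.833%). Among the 9941 genes with a mean above the median of all values, 2.08% rose and 1.61% fell. With the replicate number as a block, since same-numbered samples deviated together, 573 rose (2.87%) and 361 fell (1.81%). The arrays of the 2 groups did not overlap for 384 of the 386 genes, and over all genes tested DNMAML arrays lay all above in 8.31% and all below in 8.02%. Of the called genes 40 rose and 32 fell by more than 1 on the log2 scale. Leaving out MigR1-DMSO replicate 2 gave 222 genes and leaving out MigR1-DMSO replicate 3 gave 186. Leaving out DNMAML-DMSO replicate 1, 2 or 3 gave 245, 203 or 235. The count was 136 when the replicate 1 arrays of all groups were left out and 11 without the replicate 2 arrays.

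Of 32 Notch targets 31 were measured, and 10 fell, 2 rose and 19 did not pass the test, against 0.833% and 1.1% of all genes. This list, like the others below, was chosen with earlier results of these data known, so its share is a description and not an independent test. The 10 that fell were Nrarp, Dtx1, Hes1, Hey1, Notch3, Il2ra, Myc, Deptor, Mfsd2a and Runx1, and the 2 that rose were Gata3 and Lztfl1. The list median was -0.12, where that of all genes was -0.00, and 21 of the 31 were below 0. The count of lower targets was 7 without MigR1-DMSO replicate 2 or without DNMAML-DMSO replicate 3, and 6 when array medians were centred.

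Feedback regulators of the pathway were among the clearest falls. Nrarp encodes a small ankyrin-repeat protein that binds the Notch complex and limits it. Its log2 values were 5.12, 5.41 and 5.38 in MigR1-DMSO and 4.07, 4.10 and 4.02 in DNMAML-DMSO. The groups did not overlap, and the DNMAML arrays lay close together at the level of the array medians. The difference was -1.24 (SE 0.11, adjusted p = 5.02e-07). Dtx1, a Deltex ubiquitin ligase that acts on Notch, read 6.57, 6.40 and 6.41 with the empty vector and 5.39, 4.92 and 4.90 with DNMAML. It fell by 1.39 (SE 0.21, adjusted p = 0.000372), and every DNMAML array lay more than 1 log2 unit below every empty-vector array.

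The Hes and Hey repressors, basic helix-loop-helix factors that many tissues use as direct Notch outputs, had smaller differences. For Hes1 the DNMAML arrays lay near the array medians, so a much larger fall could not have been measured. Hes1 had 4.81, 4.84 and 4.77 in MigR1-DMSO and 4.20, 4.21 and 4.04 in DNMAML-DMSO. Hey1 had 9.89, 9.79 and 9.69 against 9.22, 9.34 and 9.09. Neither gene's groups overlapped, and Hes1 fell by 0.65 (SE 0.14, adjusted p = 0.0116) and Hey1 fell by 0.57 (SE 0.11, adjusted p = 0.00347). Hes1 was not called without MigR1-DMSO replicate 2 or without DNMAML-DMSO replicate 3, with an adjusted p of up to 0.0710. The family members Hes5 (-0.03), Hes7 (0.14), Hey2 (0.15) and Heyl (-0.25) did not pass the test. Of the 31 targets 6 had means below the highest array median in both groups, where a fall could hardly be measured.

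Growth regulators fell with them. Myc, the transcription factor that drives ribosome production and cell growth, read 9.32, 9.27 and 9.24 with the empty vector and 7.81, 8.12 and 7.71 with DNMAML. The empty-vector arrays were close together and all DNMAML arrays were more than 1 unit lower. Myc fell by 1.40 (SE 0.21, adjusted p = 0.000431), which is 2.64-fold. Deptor, an inhibitor that binds mTOR, read 5.82, 6.05 and 5.78 against 4.99, 4.96 and 4.52, and fell by 1.06 (SE 0.15, adjusted p = 0.000324). Mfsd2a, a transporter of lysophospholipids, read 6.68, 6.20 and 6.47 against 5.21, 5.33 and 5.32, and fell by 1.16 (SE 0.17, adjusted p = 0.000275). For both Deptor and Mfsd2a the lowest empty-vector array was above the highest DNMAML array.

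Il2ra encodes the alpha chain of the interleukin 2 receptor (CD25), a surface marker of early thymocytes. It read 7.43, 7.46 and 7.31 in MigR1-DMSO and 6.30, 6.00 and 5.83 in DNMAML-DMSO, and fell by 1.36 (SE 0.14, adjusted p = 9.21e-06). Runx1, a transcription factor of blood development, read 7.54, 7.60 and 7.36 against 7.05, 7.12 and 6.91, and fell by 0.47 (SE 0.11, adjusted p = 0.0211). The receptor gene Notch3 read 6.11, 6.25 and 5.81 against 5.65, 5.54 and 5.32, and fell by 0.55 (SE 0.14, adjusted p = 0.0319). The groups did not overlap for any of the 3 genes, but the margins were narrow for Runx1 and Notch3. Runx1 was not called without MigR1-DMSO replicate 1 or 2 or DNMAML-DMSO replicate 1 or 3 (adjusted p up to 0.125). Notch3 was not called without MigR1-DMSO replicate 1 or 2 or DNMAML-DMSO replicate 2 or 3 (adjusted p up to 0.201).

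Gata3, the zinc-finger factor required for T-cell commitment, went the other way, from 8.40, 8.46 and 8.44 to 8.95, 9.09 and 9.11. It rose by 0.62 (SE 0.11, adjusted p = 0.00188). Lztfl1, a protein of ciliary trafficking that T cells also express, rose from 9.39, 9.24 and 9.50 to 10.26, 10.38 and 10.51, by 1.01 (SE 0.12, adjusted p = 5.54e-05). All DNMAML arrays were above all empty-vector arrays for both. Other listed targets showed small differences that did not pass the test, among them Ptcra (-0.12), a chain of the pre-T-cell receptor, Igf1r (0.23), Il7r (-0.05), Cdk6 (0.06) and Bcl11b (0.17).

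**Figure D1:**
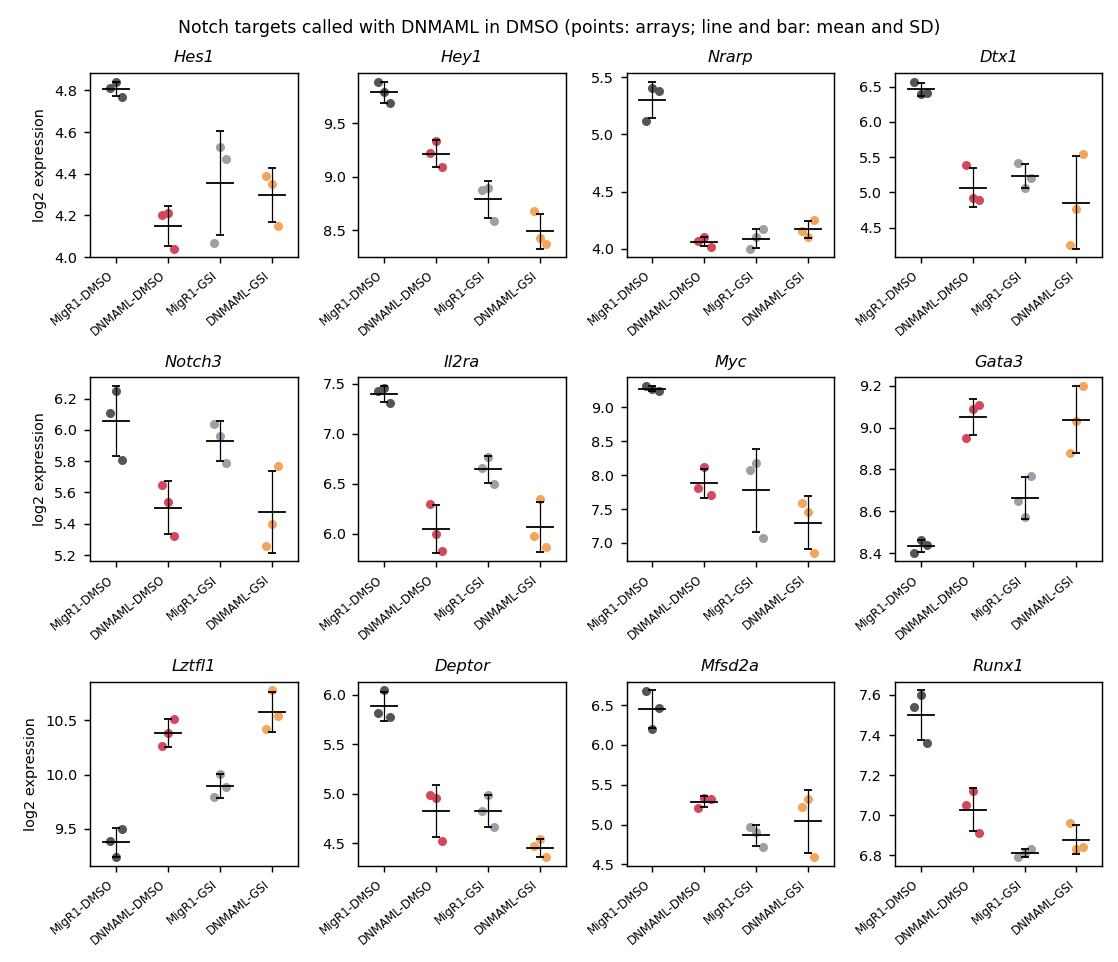
Log2 expression (vertical axis, own scale per gene) of the 12 called Notch targets in MigR1-DMSO, DNMAML-DMSO, MigR1-GSI and DNMAML-GSI, with points for arrays and a line and bar for the mean and SD of 3 arrays. The DNMAML-DMSO points lie below all MigR1-DMSO points in 10 panels and above them for Gata3 and Lztfl1.

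Few of the genes that make, receive and pass on the Notch signal were called. Of 37 measured machinery genes 0 rose and 2 fell (5.41%, against 0.833% of all genes), Notch3 and the ligand gene Jag1. The list median was 0.03, 8 of the 37 had an unadjusted p under 0.05, and with the replicate block 1 rose and 3 fell. Jag1 read 5.36, 5.47 and 5.71 against 4.93, 4.99 and 4.60, and fell by 0.67 (SE 0.13, adjusted p = 0.00539), and it was not called without MigR1-DMSO replicate 3 or DNMAML-DMSO replicate 3 (adjusted p up to 0.0536). Notch1 itself read 6.22, 6.28 and 6.17 against 5.87, 5.99 and 5.42. Its groups did not overlap, and the difference of -0.46 (SE 0.13) had an adjusted p of 0.0659, or 0.0278 with the replicate block. Rbpj, the DNA-binding partner, differed by 0.36 (SE 0.19, adjusted p = 0.550).

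The transgene was not visible in the probe sets of its family. Maml1 read 4.49, 4.40 and 4.32 in MigR1-DMSO and 4.39, 4.59 and 4.57 in DNMAML-DMSO, with overlapping groups. The differences were 0.11 for Maml1 (SE 0.13, adjusted p = 0.882), -0.06 for Maml2 and -0.07 for Maml3. Which parts of the transcripts these probe sets read was not checked, so they are no test of whether DNMAML was present.

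Promoter sequence is shown for 4 genes that fell, chosen because their window holds a motif of a factor the comparison bears on, while most windows searched do not. The 250 bases before the transcription start come from RefSeq, build GRCm38.p6, and capitals mark matches to GTGNGAA, which covers the letters RBPJ is known to bind, or to CACGTG, the E-box that Myc and other helix-loop-helix factors can bind. Both strands were searched. Each sequence reads 5′ to 3′ on the gene's own strand.
Il2ra, chr2:11642542-11642791, plus strand: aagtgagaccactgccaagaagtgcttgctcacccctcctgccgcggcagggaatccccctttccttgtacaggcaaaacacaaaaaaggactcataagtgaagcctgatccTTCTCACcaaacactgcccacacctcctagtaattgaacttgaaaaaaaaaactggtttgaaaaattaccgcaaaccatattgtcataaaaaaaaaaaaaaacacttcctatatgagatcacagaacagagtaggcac
Serpinb8, chr1:107589756-107590005, plus strand: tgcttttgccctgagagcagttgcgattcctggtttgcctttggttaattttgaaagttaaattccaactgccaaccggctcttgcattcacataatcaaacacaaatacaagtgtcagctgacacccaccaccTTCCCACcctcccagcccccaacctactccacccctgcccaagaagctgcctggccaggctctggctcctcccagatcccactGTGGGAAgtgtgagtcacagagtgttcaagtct
Rag1, chr2:101649533-101649782, minus strand: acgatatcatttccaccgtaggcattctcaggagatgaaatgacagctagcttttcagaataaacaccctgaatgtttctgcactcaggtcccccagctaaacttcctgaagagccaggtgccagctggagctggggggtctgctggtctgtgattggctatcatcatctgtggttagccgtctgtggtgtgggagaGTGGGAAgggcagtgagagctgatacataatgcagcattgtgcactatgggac
Nrarp, chr2:25180508-25180757, plus strand: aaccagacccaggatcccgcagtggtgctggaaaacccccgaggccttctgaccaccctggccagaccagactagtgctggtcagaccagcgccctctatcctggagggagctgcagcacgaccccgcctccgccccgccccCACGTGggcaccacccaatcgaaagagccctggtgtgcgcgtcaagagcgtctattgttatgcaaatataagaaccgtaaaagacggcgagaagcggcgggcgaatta

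The Il2ra window held 1 GTGNGAA match, on the opposite strand 138 bases before the start. The Serpinb8 window held 2, on the opposite strand at 116 bases and on the gene's strand at 33 bases, and the Rag1 window held 1 on its own strand at 53 bases. The Nrarp window held 1 CACGTG, which reads the same on both strands, at 108 bases. Over all promoters of the table (32851 windows of the same length) GTGNGAA was present in 12.1% and CACGTG in 6.02%, and at least 2 GTGNGAA matches in 0.895%. Among genes with a window, GTGNGAA was in 20 of 119 that fell (16.8%), 13 of 183 that rose (7.1%) and 13.2% of all genes tested. CACGTG was in 16 of 119 that fell (13.4%), 16 of 183 that rose (8.74%) and 8.11% of all genes tested, and in 0 of the 19 ribosome biogenesis genes that fell. The shorter TGGGAA, which overlaps GTGNGAA, was in 24.4% of those that fell and 23.7% of all genes tested. Of the 10 Notch targets that fell 6 had a window. GTGNGAA was in 1 of them, Il2ra, TGGGAA in 0 and CACGTG in 2, Nrarp and Runx1. Dtx1, Mfsd2a and Notch3 held none of the motifs. Of the targets that rose Lztfl1 held CACGTG and Gata3 held none. A match is a description of these letters in this window, and no binding was measured.

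Rag1 is one part of the recombinase that joins antigen receptor segments. Its values were 5.84, 5.40 and 4.43 in MigR1-DMSO and 2.86, 3.34 and 3.04 in DNMAML-DMSO. The empty-vector arrays were spread over more than 1 unit, yet the groups did not overlap, and the DNMAML arrays were below the array medians. The difference was -2.15 (SE 0.31, adjusted p = 0.000284), and no fold is given because the DNMAML level was not measured above background. Its partner Rag2 was close to background in both groups (2.72 and 2.41) and differed by -0.31 (adjusted p = 0.708).

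Other large falls had varied roles. Serpinb8, a protease inhibitor of the serpin family, read 6.27, 5.83 and 5.91 against 4.48, 4.08 and 4.10, and fell by 1.78 (SE 0.17, adjusted p = 4.43e-06). Capn5, a calcium-dependent protease, read 6.52, 6.50 and 6.22 against 5.11, 5.23 and 5.12, and fell by 1.26 (SE 0.16, adjusted p = 9.70e-05). The groups did not overlap for either gene. Agfg1, an Arf GTPase-activating protein family member, had the smallest adjusted p of the comparison. It read 9.90, 9.92 and 10.14 against 8.66, 8.75 and 8.64, and fell by 1.31 (SE 0.09, adjusted p = 2.28e-08). Afdn, the junction protein afadin, read 9.02, 9.04 and 9.15 against 8.18, 7.89 and 7.78, and fell by 1.12 (SE 0.11, adjusted p = 5.82e-06). The interferon-inducible Ifi202b (-1.16), the Rab regulator Dennd2d (-1.01) and the pseudokinase Prag1 (-1.0) fell as well.

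Of 58 measured ribosome biogenesis genes 19 fell (32.8%) and 0 rose, against 0.833% and 1.1% of all genes. Of genes above the median level 1.61% fell and 2.08% rose. Under the replicate block 31 of the 58 were lower. Their median was -0.43, 56 of the 58 were below 0, and for 40 all DNMAML arrays lay below all empty-vector arrays. The mean over the 58 genes was 8.31, 8.29 and 8.15 in the MigR1-DMSO arrays and 7.94, 7.91 and 7.67 in the DNMAML-DMSO arrays, so the groups did not overlap, and replicate 3 was lowest in each. Leaving out MigR1-DMSO replicate 2 or 3 gave 10 or 12 lower genes, and leaving out DNMAML-DMSO replicate 3 gave 11. It was 30 after a second quantile normalization and 5 when array medians were centred, with medians of -0.48 and -0.40.

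The genes that fell act at several steps of ribosome assembly. Polr1b, a core subunit of RNA polymerase I, read 5.84, 5.94 and 5.93 against 5.37, 4.84 and 5.21, and fell by 0.76 (SE 0.17, adjusted p = 0.0159), and was not called without MigR1-DMSO replicate 2 or 3 or DNMAML-DMSO replicate 2 (adjusted p up to 0.136). Heatr1, a factor of early small-subunit assembly, read 7.95, 7.98 and 8.04 against 7.38, 7.36 and 7.10, and fell by 0.71 (SE 0.11, adjusted p = 0.000711). Nolc1, a nucleolar chaperone of small nucleolar particles, read 8.74, 8.70 and 8.52 against 8.08, 7.99 and 7.74, and fell by 0.72 (SE 0.13, adjusted p = 0.00308). The groups were separate for all 3. Nat10, which acetylates ribosomal RNA, fell by 0.80 (adjusted p = 0.00391), Rrp1b by 0.78 (adjusted p = 0.000388) and the RNA helicase Ddx21 by 0.70 (adjusted p = 0.00709). The most abundant nucleolar proteins did not pass the test, with differences of -0.10 for Ncl, -0.22 for Npm1 and -0.17 for Fbl.

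Genes of the ribosomal proteins themselves lay close to 0. Of 40 measured genes of cytosolic ribosomal proteins 1 fell (2.5%, against 0.833% of all genes), Rpl30 (-0.56, adjusted p = 0.0339). The list median was 0.00. With the replicate block 2 fell. Rpl30 was not called after a second quantile normalization, and it was called in only 1 of the 6 fits without 1 array, the one without MigR1-DMSO replicate 1. Typical members were close to 0, such as Rps6 (0.01), Rpl5 (-0.00) and Rps3 (0.02).

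Other growth-related lists had fewer calls. In polyamine, nucleotide and one-carbon synthesis 3 of 30 fell (10%, against 0.833% of all genes). Under the replicate block 9 fell, where 1.81% of all genes did. Srm, spermidine synthase, read 8.12, 7.74 and 7.89 against 7.17, 7.20 and 7.05, and fell by 0.78 (SE 0.15, adjusted p = 0.00539). Shmt1, the cytosolic serine hydroxymethyltransferase, fell by 0.81 (adjusted p = 0.00561, and 0.0509 without DNMAML-DMSO replicate 3). Ppat, the first enzyme of purine synthesis, fell by 0.47 (adjusted p = 0.0326), and it was not called in any of the 6 fits without 1 array. Odc1, the enzyme that starts polyamine synthesis, differed by -0.15 (adjusted p = 0.746). Among aminoacyl-tRNA synthetases 2 of 18 fell (11.1%), Iars (-0.58) and Farsb (-0.43), and 6 did with the block. Farsb was not called in any of the 6 fits without 1 array. Among 31 mitochondrial chaperones and assembly factors 2 fell (6.45%), Ndufaf4 (-0.82, adjusted p = 0.000181) and C1qbp (-0.38), and 6 did with the block. C1qbp was likewise not called in any fit without 1 array. In glycolysis and nutrient uptake 1 of 25 fell (4%), the arginine transporter Slc7a1 (-0.64, adjusted p = 0.00529). The list median was -0.01, and with the block 1 rose and 2 fell. In sterol and fatty acid synthesis 0 of 28 were called, at an unadjusted p under 0.05 also 0, and with the block 1 rose and 1 fell.

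Small nucleolar RNA genes showed the highest share of calls of any list examined, although that group was picked after its values were seen. These RNAs guide chemical changes of ribosomal RNA, and most are cut from introns of longer genes. Of 51 measured genes 21 fell (41.2%, against 0.833% of all genes), 0 rose and 29 fell with the replicate block. Their median was -0.74 and 50 of the 51 were below 0. The mean over the 51 genes was 5.83, 5.85 and 5.88 in MigR1-DMSO and 5.15, 4.93 and 5.22 in DNMAML-DMSO. The groups did not overlap, and the DNMAML arrays were spread more widely than the empty-vector arrays. The count was between 15 and 19 in the 6 fits without 1 array. Microarrays of this kind read precursors that hold the sequence as well as the mature RNA, and which of these changed was not tested.

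Single examples show the size. Snora33 read 8.46, 8.58 and 8.54 against 7.29, 7.19 and 7.03, and fell by 1.35 (SE 0.17, adjusted p = 7.81e-05). Snord14e read 7.73, 7.89 and 8.08 against 6.58, 6.50 and 6.20, and fell by 1.47 (SE 0.21, adjusted p = 0.000222). Snord57 read 7.42, 7.60 and 7.52 against 6.22, 5.75 and 6.05, and fell by 1.51 (SE 0.26, adjusted p = 0.00179). Every DNMAML array was below every empty-vector array for the 3. Snora41 had the largest difference, from 5.08, 5.24 and 5.56 to 3.23, 3.06 and 4.31 (-1.76, adjusted p = 0.00229), with 1 DNMAML array well above the other 2. Those 2 lay below the array medians, so the size of the fall is uncertain.

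The genes that contain them moved less. Of the 51 small nucleolar RNA genes 29 lay within exactly 1 measured gene, 25 genes in all, by RefSeq. In those pairs 11 small RNAs fell, against 2 containing genes (Ipo7 and Wdr43) and 0 that rose. The medians were -0.74 for the small RNAs and -0.04 for the containing genes, and the small RNA was the lower of the pair in 27 of 29. Snora33 lies in Rps12, a ribosomal protein gene that differed by 0.02. Snord47 (-1.28) lies in Gas5 (-0.04), Snord14e in the chaperone gene Hspa8 (-0.04) and Snora41 in Eef1b2 (0.04). Nop56, which holds Snord57, differed by -0.48 (adjusted p = 0.0675, and 0.00212 with the block).

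**Figure D2:**
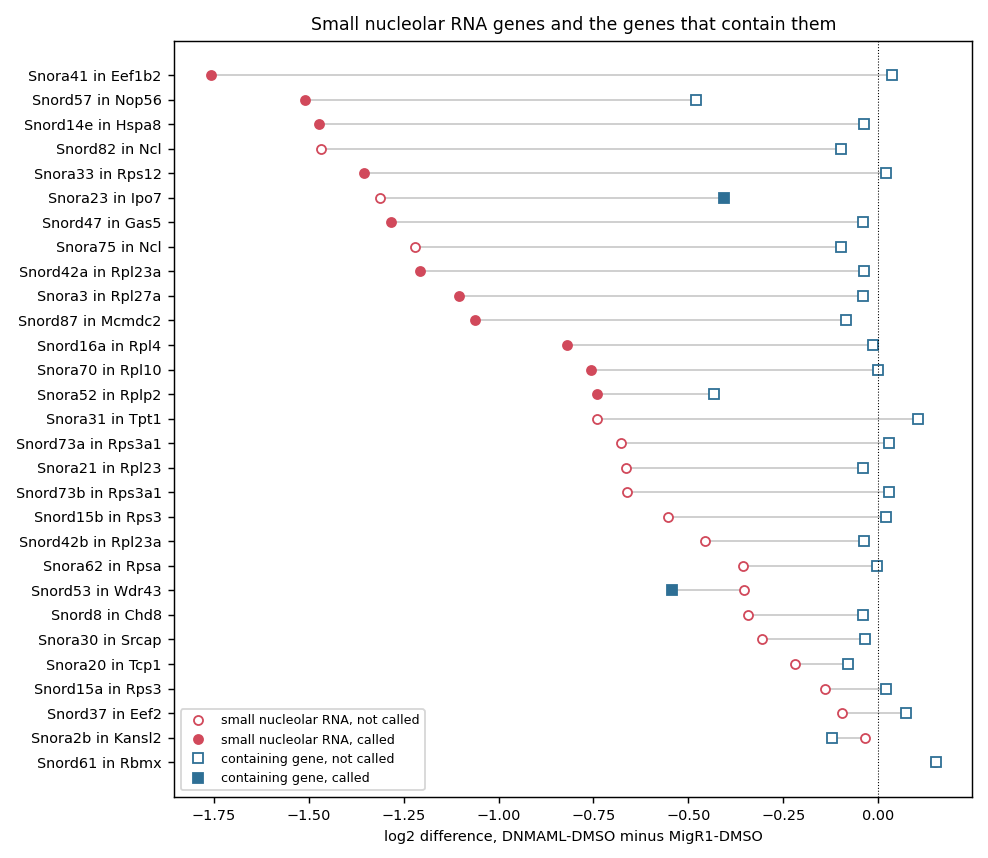
Log2 difference between DNMAML-DMSO and MigR1-DMSO (horizontal axis) for 29 small nucleolar RNA genes (circles) and the measured gene that contains each (squares), with filled symbols for called genes and a line that joins each pair. Circles reach from -1.76 to 0.15, while most squares lie near 0.

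Of 291 genes with microRNA symbols 2 fell, Mir17hg and Mir18, 0 rose and the median was -0.02. The share that fell, 0.687%, was no higher than the 0.833% of all genes, and both belong to 1 locus. Among 11 other small nuclear and Cajal body RNA genes 0 were called, 2 with an unadjusted p under 0.05, with a median of 0.08, and 1 rose with the replicate block. The mean level was below the highest array median for 212 of the 291 and 6 of the 11, against 11 of the 51 small nucleolar RNA genes, so a fall could not be measured for many of them. Whether these groups differ was not tested. Mir17hg is the host transcript of the miR-17 cluster, which Myc is known to activate and which holds Mir18. Mir17hg read 5.25, 5.61 and 5.98 against 4.72, 4.44 and 4.94, and fell by 0.91 (SE 0.17, adjusted p = 0.00298). Mir18 read 5.16, 5.57 and 5.69 against 4.28, 3.73 and 4.26, and fell by 1.39 (SE 0.29, adjusted p = 0.00939). Neither pair of groups overlapped, and the DNMAML arrays of Mir18 lay near the array medians. Mir18 was not called without MigR1-DMSO replicate 2 or 3 or DNMAML-DMSO replicate 2 (adjusted p up to 0.0807). The mature 5′ arm that this gene gives is shown because Mir18 was the only called gene of a single microRNA, with the seed (bases 2 to 8) in capitals, from RefSeq, GRCm38.p6, chr14:115043867-115043889, plus strand. The probe set was not matched to the mature or the precursor form.
miR-18a-5p: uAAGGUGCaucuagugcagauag

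Snhg5, a long noncoding RNA whose introns hold small nucleolar RNAs, fell by 1.09, from 9.87, 9.97 and 9.81 to 8.91, 8.94 and 8.53 (SE 0.12, adjusted p = 1.98e-05). It was the 1 called gene among 5 measured Snhg genes (20%, against 0.833% of all genes), all of which were below 0.

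Of 40 DNA replication and G1/S genes 0 were called, 3 had an unadjusted p under 0.05, and their median was -0.05. Of 49 mitosis and G2/M genes all were above 0, with a median of 0.32, and 3 rose (6.12%). Of all genes 1.1% rose, and of those above the median level 2.08% did. With the replicate block 18 rose (2.87% of all genes did). The mean over the 49 genes was 7.74, 7.80 and 7.59 in MigR1-DMSO and 8.07, 8.11 and 7.90 in DNMAML-DMSO, and replicate 3 was lowest in both groups. Nusap1, a spindle protein, read 8.02, 7.82 and 7.54 against 8.45, 8.47 and 8.22, a rise of 0.59 (SE 0.14, adjusted p = 0.0230). Tpx2, which activates Aurora A, rose by 0.57 (adjusted p = 0.0204) and the cyclin Ccnb2 by 0.47 (adjusted p = 0.0256). The count was 0 of 49 when array medians were centred, without MigR1-DMSO replicate 3, or without DNMAML-DMSO replicate 1 or 2, and 1 without MigR1-DMSO replicate 2. Mki67 (0.29) and Plk1 (0.39) did not pass the test.

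Brakes on the cycle rose in part. Among 36 genes of CDK inhibitors, cyclins and quiescence 3 rose (8.33%, against 1.1% of all genes) and 0 fell. The replicate block gave 6 rises and 1 fall. Ccng2, an unconventional cyclin linked to arrest, read 5.32, 5.09 and 4.96 against 6.25, 6.47 and 6.16, a rise of 1.17 (SE 0.16, adjusted p = 0.000220). Txnip, a thioredoxin-binding arrestin that limits glucose uptake, read 6.82, 7.16 and 7.10 against 7.95, 8.04 and 8.37, a rise of 1.10 (SE 0.14, adjusted p = 0.000103). Cdkn1b, the CDK inhibitor p27, rose by 0.62 (adjusted p = 0.00786, and 0.0751 without DNMAML-DMSO replicate 3). All 3 had separate groups. Bcl2, the survival factor, rose by 0.66 from 8.41, 8.35 and 8.12 to 8.93, 9.04 and 8.88 (adjusted p = 0.00116). It was the 1 called gene of 25 in its family list (4%), where 3 rose with the block.

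**Figure D3:**
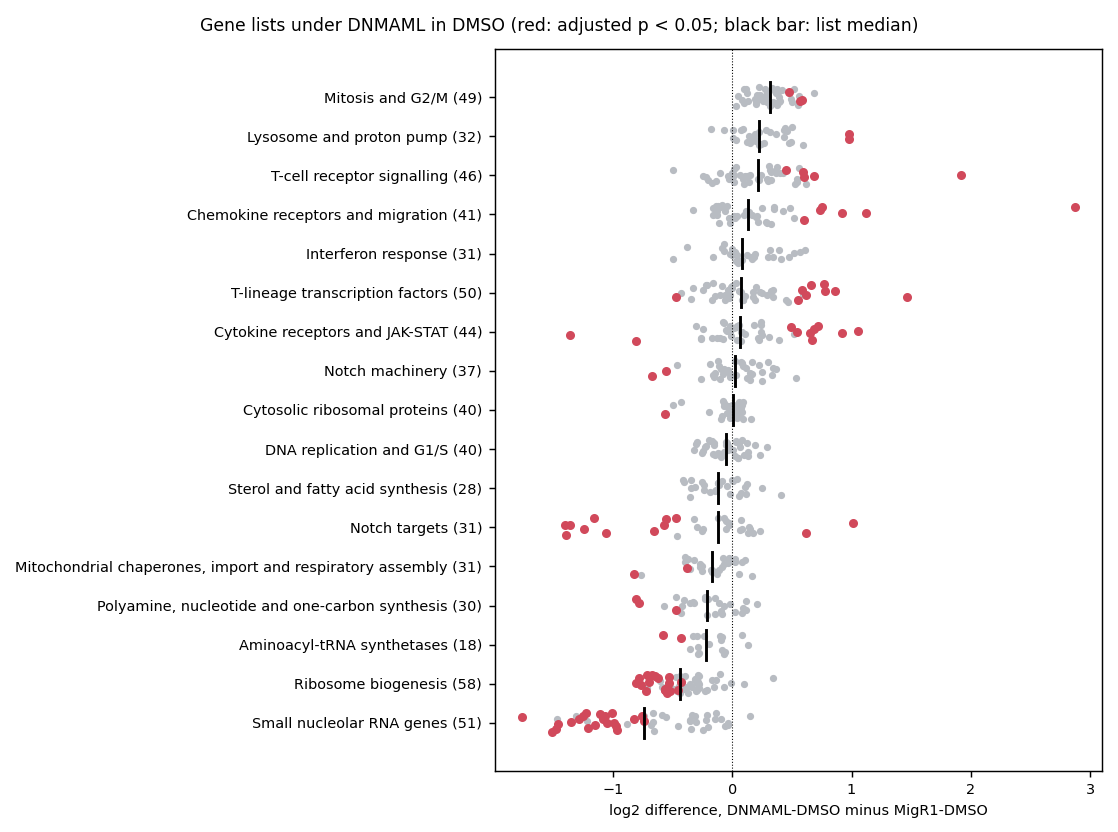
Log2 difference between DNMAML-DMSO and MigR1-DMSO (horizontal axis) for each measured gene of 17 lists, with the number measured in brackets, red points for called genes and a black bar at the list median. Small nucleolar RNA and ribosome biogenesis genes lie to the left with medians of -0.74 and -0.43, and mitosis genes to the right with a median of 0.32.

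Ccr8, a chemokine receptor of activated and regulatory T cells, had the largest difference of all 19938 genes. It read 6.58, 6.08 and 6.07 in MigR1-DMSO and 8.94, 9.17 and 9.24 in DNMAML-DMSO, a gap of more than 2 units between the nearest arrays. The rise of 2.87 (SE 0.39, adjusted p = 0.000146) was 7.32-fold. Of 41 genes of chemokine receptors and migration 6 rose (14.6%, against 1.1% of all genes) and 0 fell. The others were Ccr9 (1.12), which guides cells to thymus and gut, Cxcr6 (0.92), the lysophospholipid receptor Gpr132 (0.75), Ccr2 (0.74) and Rgs3 (0.60), a brake on G-protein signalling. Ccr2 was near background in both groups, with means of 3.48 in MigR1-DMSO and 4.22 in DNMAML-DMSO. The count was 1, Ccr8, without DNMAML-DMSO replicate 2, and 4 without DNMAML-DMSO replicate 3 or without any 1 of the MigR1-DMSO arrays. Ccr9 read 9.15, 8.92 and 9.03 against 10.16, 10.06 and 10.23, and the groups did not overlap. Its adjusted p was 0.0311 and it was not called in any of the 6 fits without 1 array (up to 0.135), and 0.00148 in a fit of these 2 groups alone.

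Cpa3, a carboxypeptidase of mast cell granules that early T-cell progenitors also express, rose from 6.87, 7.02 and 7.08 to 8.98, 9.29 and 9.55. The difference was 2.28 (SE 0.26, adjusted p = 1.98e-05), or 4.86-fold, with all DNMAML arrays far above. Of 26 mast cell, granule and cytotoxic genes 2 rose and 1 fell (7.69% and 3.85%, against 1.1% and 0.833% of all genes). The block gave 2 rises and 2 falls. The other rise was granzyme A, Gzma (0.43, adjusted p = 0.0391), which was not called in any of the 6 fits without 1 array. The fall was perforin, Prf1, from 5.26, 5.17 and 5.34 to 4.61, 4.56 and 4.42 (-0.73, adjusted p = 0.0152), not called without MigR1-DMSO replicate 3 or DNMAML-DMSO replicate 2 or 3. Mast cell markers proper stayed close to background, with Tpsb2 at 3.92 and 3.76, Cma1 at 3.08 and 3.04 and Ms4a2 at 2.67 and 2.58 in the 2 groups. The mast cell receptor chain Fcer1a was at 2.53 and 2.89 (adjusted p = 0.179).

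Signalling from the T-cell receptor was represented by 5 rises (10.9%, against 1.1% of all genes) and 0 falls among 46 genes. Under the replicate block 13 rose, where 2.87% of all genes did. Sla, an adaptor (SLAP) that turns T-cell receptor signals down, read 5.83, 5.47 and 5.55 against 7.42, 7.83 and 7.36. It rose by 1.92 (SE 0.25, adjusted p = 7.75e-05), 3.79-fold, with all DNMAML arrays above. Smaller rises were called for the adaptors Grap2 (0.68) and Lcp2 (0.45), the kinase Prkcq (0.60) and the exchange factor Vav3 (0.60). Grap2 was not called in any of the 6 fits without 1 array (adjusted p up to 0.207). Lcp2 and Prkcq were not called without MigR1-DMSO replicate 2 or DNMAML-DMSO replicate 2 or 3, nor Vav3 without MigR1-DMSO replicate 3. The count was 2 without MigR1-DMSO replicate 2 or without DNMAML-DMSO replicate 2, and 3 without MigR1-DMSO replicate 3. Zap70 (0.02) and Lat (0.09) did not pass the test.

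T-cell stage genes moved in both directions, with 6 rises and 2 falls among 28. These were 21.4% and 7.14%, against 1.1% and 0.833% of all genes. The falls were Rag1 and Il2ra. Kit, the stem cell factor receptor, read 5.50, 5.47 and 5.70 against 6.60, 6.68 and 6.55, a rise of 1.05 (SE 0.12, adjusted p = 1.98e-05). Cd247, the zeta chain of the T-cell receptor complex, read 6.47, 6.25 and 6.11 against 7.41, 7.49 and 7.17, a rise of 1.08 (SE 0.18, adjusted p = 0.00104). Both were separate in all arrays. Cd4 rose from 3.97, 3.84 and 3.78, near background, to 5.16, 4.85 and 4.48 (0.97, adjusted p = 0.000735). Thy1, a pan-T-cell surface protein, rose by 0.72 (adjusted p = 0.00786, and 0.0629 without MigR1-DMSO replicate 3). The CD3 chains Cd3e (0.08), Cd3g (0.02) and Cd3d (0.11) and Cd8a (0.03) did not pass the test.

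Lineage transcription factors rose more often than they fell, 8 against 1 of 50 (16% against 1.1% of all genes, and 2% against 0.833%). Bhlhe41, a helix-loop-helix repressor, read 5.33, 4.76 and 4.93 against 6.41, 6.46 and 6.55, a rise of 1.46 (SE 0.20, adjusted p = 0.000166). Ets1 read 5.70, 5.63 and 5.47 against 6.48, 6.43 and 6.48, a rise of 0.86 (SE 0.14, adjusted p = 0.000979). Runx3, a factor of CD8 and innate lymphocytes, read 6.91, 6.92 and 6.75 against 7.66, 7.59 and 7.64, a rise of 0.77 (SE 0.12, adjusted p = 0.000798). In these 3 the DNMAML arrays were close together and all higher. Sox13 rose by 0.66 (adjusted p = 0.00121), Tox2 by 0.78 (adjusted p = 0.0127), and Gata3, Fli1 (0.58) and Ikzf1 (0.55) were the others. Tox2 was not called without MigR1-DMSO replicate 3 or DNMAML-DMSO replicate 1 or 2. Runx1 was the fall, so the 2 Runx genes of this list that were called moved apart.

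Cytokine receptors had 8 rises and 2 falls among 44 genes (18.2% and 4.55%, against 1.1% and 0.833% of all genes). The falls were Il2ra and Il15ra, the alpha chains of the interleukin 2 and 15 receptors. Il15ra read 5.88, 6.09 and 6.14 against 5.48, 5.05 and 5.16, and fell by 0.81 (SE 0.15, adjusted p = 0.00391). Il2rb, the beta chain that both receptors share, went from 3.91, 3.50 and 3.63, near background, to 4.64, 4.67 and 4.48, a rise of 0.92 (SE 0.16, adjusted p = 0.00184). The alpha and beta chains were each separate between groups, in opposite directions. Il6st (gp130) rose by 0.68 (adjusted p = 0.00184) and the interferon receptor chain Ifnar1 by 0.72 (adjusted p = 0.00884), which was not called without MigR1-DMSO replicate 3 or DNMAML-DMSO replicate 1. The count of rises was 3 without DNMAML-DMSO replicate 1, 4 without DNMAML-DMSO replicate 2 or MigR1-DMSO replicate 2, and 5 without replicate 3 of either group. Of 31 interferon response genes 0 were called, 4 had an unadjusted p under 0.05 and 4 rose with the block.

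Of 35 genes of co-inhibitory and costimulatory receptors and related regulators 3 rose (8.57%, against 1.1% of all genes). Under the replicate block 5 rose, where 2.87% of all genes did. Pdcd1 (PD-1) read 5.56, 5.24 and 5.42 against 7.25, 7.29 and 6.40, a rise of 1.57 (SE 0.23, adjusted p = 0.000388), with DNMAML replicate 3 lower than the other 2 yet above all empty-vector arrays. Cd96 read 5.60, 5.56 and 5.50 against 6.74, 6.87 and 6.61, a rise of 1.19 (SE 0.15, adjusted p = 5.54e-05). Laptm5, a lysosomal protein that lowers receptor levels, rose by 0.95 (adjusted p = 0.00679, and 0.0567 without MigR1-DMSO replicate 3). Lag3 (0.29) and Ctla4 (-0.25) did not pass the test and were near background.

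Feedback genes of the ERK pathway gave 4 rises of 25 (16%, against 1.1% of all genes), and the list median was -0.02. Etv5, an ETS factor that ERK induces, read 9.0, 8.73 and 8.82 against 9.67, 9.66 and 9.72, a rise of 0.84 (SE 0.12, adjusted p = 0.000391). Spry2, an inhibitor of receptor signals, read 4.82, 5.11 and 4.80 against 5.78, 6.07 and 5.70, a rise of 0.94 (SE 0.17, adjusted p = 0.00215). The phosphatases Dusp4 (0.95, adjusted p = 0.00539) and Dusp6 (0.77, adjusted p = 0.0311) were the others. Dusp6 was not called in any of the 6 fits without 1 array, and Dusp4 was not called without MigR1-DMSO replicate 3. In the PI3K and mTOR list the phosphatase Inpp4b rose from 6.08, 6.27 and 6.00 to 7.09, 7.21 and 7.23 (1.06, adjusted p = 0.000618), and Deptor was the fall. Of its 31 genes 1 rose and 1 fell (3.23% each), and with the block 4 rose and 1 fell.

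Lysosome genes leaned higher. The protease Ctsd read 8.05, 8.04 and 7.74 against 8.89, 9.03 and 8.86, a rise of 0.98 (SE 0.15, adjusted p = 0.000530). Atp6v0a1, a proton pump subunit, read 5.30, 5.16 and 5.10 against 6.10, 6.17 and 6.23, also a rise of 0.98 (SE 0.12, adjusted p = 6.05e-05). These were 2 of 32 measured genes (6.25%, against 1.1% of all genes), with 30 genes above 0 and a median of 0.23. Under the replicate block 8 rose, where 2.87% of all genes did. In the lists of NF-kappaB, Gimap, antigen presentation and amino acid stress genes 0 were called, while 1 gene of amino acid stress rose, 1 fell and 1 of antigen presentation rose with the block.

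Some rises belonged to no list. Aff3, a nuclear scaffold of transcription elongation complexes, read 6.98, 7.0 and 6.73 against 8.61, 8.63 and 8.50, a rise of 1.68 (SE 0.18, adjusted p = 1.16e-05). Clec4e (Mincle), a lectin best known from myeloid cells, read 6.30, 6.62 and 6.02 against 7.92, 7.93 and 8.04, a rise of 1.65 (SE 0.19, adjusted p = 1.98e-05), while 0 of 19 myeloid markers were called. Slc7a8, a transporter of neutral amino acids, read 6.82, 6.49 and 6.67 against 7.93, 8.03 and 8.35, a rise of 1.45 (SE 0.18, adjusted p = 5.38e-05). All 3 genes had at least 1 unit between the nearest arrays of the groups. Ednrb (1.33), Tead1 (1.32) and Cd52 (1.23) rose as well. Tes (1.55), Slc15a1 (1.49), Tmem218 (1.39) and S100a6 (1.29) were called with all arrays and not in 2, 5, 4 and 5 of the 6 fits without 1 array. The fits without MigR1-DMSO replicate 3 and without DNMAML-DMSO replicate 2 were the ones common to these 4 genes. In a fit of the 2 groups alone their adjusted p was 0.0058, 0.000957, 0.0845 and 0.0058, in the same order.

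Of 15 stromal and epithelial markers 1 rose and 2 fell (6.67% and 13.3%, against 1.1% and 0.833% of all genes). Pecam1 rose, from 6.04, 5.98 and 5.66 to 7.11, 6.76 and 6.91 (1.04, adjusted p = 0.00186). Cdh1 (-0.68) and Pdgfrb (-0.63) fell, and each was lost without 1 array, Pdgfrb in all 6 fits and Cdh1 without replicate 1 of either group. Il2rb was the 1 called natural killer marker of 11 (9.09%). Whether other cells had a part in any of these changes was not tested.

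Of 20 measured sialyltransferase genes, a family looked at after its values were seen, 3 rose, 1 fell and 16 did not pass the test. Of all genes 1.1% rose and 0.833% fell. St6gal1 read 6.99, 6.94 and 6.82 against 7.94, 8.12 and 8.13, a rise of 1.15 (SE 0.19, adjusted p = 0.000979). St3gal1 rose by 1.03 (adjusted p = 0.000177) and St8sia4 by 1.04 (adjusted p = 0.00263), while St6galnac4 fell by 0.87 (adjusted p = 0.00708) and was not called without replicate 1 of either group. St6galnac4 was close to background, with means of 4.47 in MigR1-DMSO and 3.60 in DNMAML-DMSO. These enzymes cap surface glycans with sialic acid at different linkages. The clock factor Arntl (BMAL1) also rose, from 6.14, 5.86 and 5.69 to 6.85, 7.09 and 6.85 (1.03, adjusted p = 0.000177), while Per1 (0.04) and Clock (-0.20) did not pass the test.

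By the order of genes in RefSeq, 18 of 18218 neighbouring pairs of measured genes were called in the same direction (0.0988%). They were 2.63% of the 684 pairs with at least 1 called gene. Among them were Il2ra and Il15ra, both lower, Lztfl1 and Ccr9, Ets1 and Fli1, and Ifnar1 and Ifngr2, all higher, and Nolc1 with the coactivator gene Pprc1 and Iars with Nol8, all lower.

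**Figure D4:**
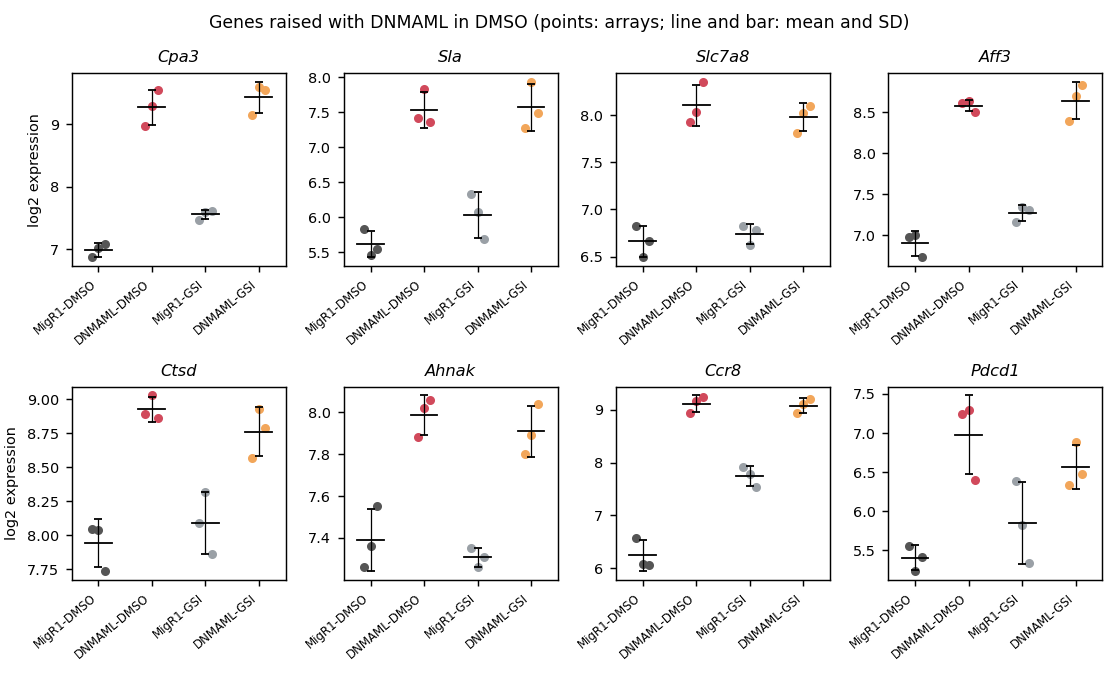
Log2 expression (vertical axis, own scale per gene) of 8 genes that rose with DNMAML in DMSO, in MigR1-DMSO, DNMAML-DMSO, MigR1-GSI and DNMAML-GSI, with points for arrays and a line and bar for the mean and SD of 3 arrays. Both DNMAML groups lie above both MigR1 groups for Cpa3, Sla, Slc7a8 and Aff3, while Ccr8 has a middle level in MigR1-GSI.

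The same construct contrast was made under GSI, on 6 other arrays, where gamma-secretase was blocked in both groups. There DNMAML changed 38 genes, 21 higher (0.105%) and 17 lower (0.0853%), and 93 and 70 with the replicate block. The split was 28 higher and 49 lower after a second quantile normalization and 7 and 2 when array medians were centred. The count was 12, 12 and 21 without MigR1-GSI replicate 1, 2 or 3, and 23, 9 and 12 without DNMAML-GSI replicate 1, 2 or 3. Of the 21 higher genes 19 were also higher in DMSO (90.5% of the GSI list and 8.64% of the DMSO list), and of the 17 lower 15 were also lower (88.2% and 9.04%). Of the 220 genes that rose in DMSO 218 were above 0 under GSI, and of the 166 that fell 158 were below 0, where 49.2% and 50.8% of all genes were. Their sizes were smaller, with medians of 0.70 in DMSO and 0.41 under GSI for the rises and -0.63 and -0.32 for the falls. Since these genes were picked by the DMSO contrast, a smaller median on other arrays is to be read as a description. Both contrasts set the same 2 constructs against each other. A difference between the cell populations that is not due to DNMAML could recur in both and cannot be told apart.

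Cpa3 rose under GSI by 1.88 (SE 0.26, adjusted p = 0.00202), Sla by 1.53 (adjusted p = 0.00635), Aff3 by 1.37 and Slc7a8 by 1.24 (both adjusted p = 0.00202). Agfg1 fell under GSI by 0.66 (adjusted p = 0.00202) and Afdn by 0.71 (adjusted p = 0.00635). Small nucleolar RNA genes had 3 falls of 51 under GSI, where 0.0853% of all genes fell and 0.105% rose. Their median was -0.37, with array means of 5.35, 5.32 and 5.34 in MigR1-GSI and 4.95, 4.94 and 5.09 in DNMAML-GSI. Most Notch targets showed no called effect of DNMAML under GSI, with 0 of 31 lower and 1 higher, Lztfl1 (0.68, adjusted p = 0.0165). With the replicate block 1 was lower, Il2ra (-0.57, adjusted p = 0.0397, and 0.130 without the block).

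**Figure D5:**
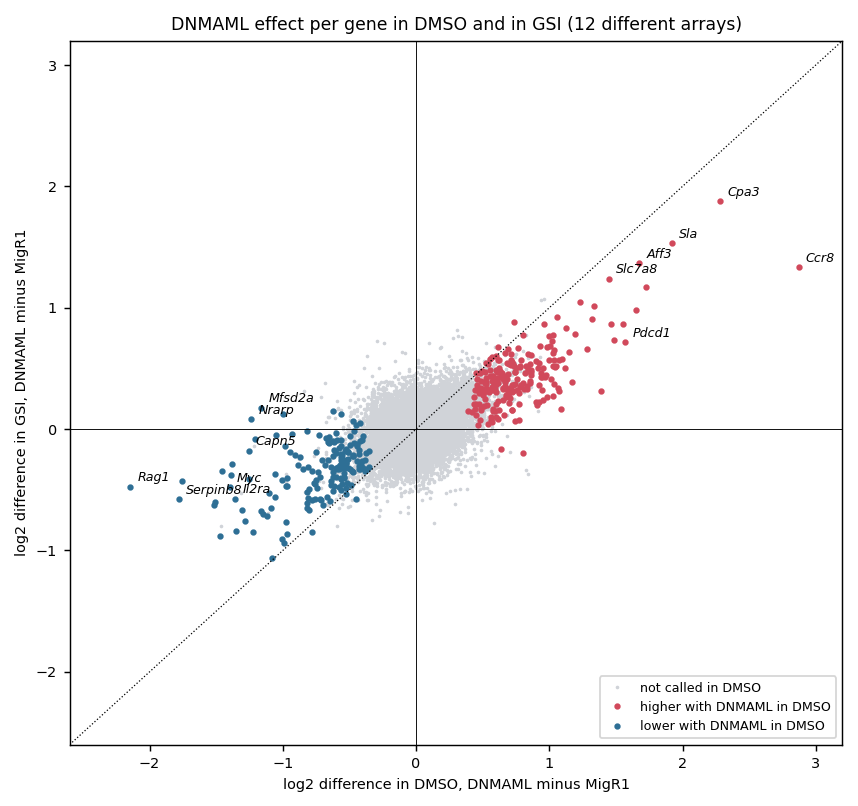
Log2 difference between DNMAML and MigR1 for 19938 genes, in DMSO (horizontal axis) and in GSI (vertical axis), from 12 different arrays, with genes called in DMSO in red (higher) and blue (lower) and a dotted line of equal difference. Cpa3, Sla, Aff3 and Slc7a8 lie close to the line, while Rag1, Serpinb8, Nrarp, Mfsd2a and Capn5 lie near 0 on the vertical axis or well above the line.

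The difference between the 2 contrasts was tested directly. Only Nrarp was called (0.00502% of genes), with 621 genes at an unadjusted p under 0.05. The count was 3 without MigR1-GSI replicate 1, 2 without DNMAML-GSI replicate 3, and 0 when the replicate 2 or the replicate 3 arrays of all groups were left out. Its DNMAML effect was -1.24 in DMSO and 0.08 under GSI, where the MigR1 arrays read 4.0, 4.10 and 4.17 and the DNMAML arrays 4.16, 4.10 and 4.25, overlapping at the level of the array medians. With MigR1-GSI already at that level, a further fall could not have been measured. The difference of the effects was -1.32 (95% interval -1.63 to -1.01, adjusted p = 0.000199). Intervals here and below are for single genes and, unlike the p-values, are not adjusted for the number of genes. One that leaves out 0 is therefore not a call. With the replicate block Mfsd2a, Capn5 and Serpinb8 were called too, with differences of -1.34 (adjusted p = 0.0268), -1.08 (adjusted p = 0.0268) and -1.20 (adjusted p = 0.0178). Without the block their adjusted p was 0.0934, 0.456 and 0.341. For Rag1 it was -1.67 (95% interval -2.58 to -0.77, adjusted p = 0.853) and for Myc -0.92 (95% interval -1.54 to -0.31, adjusted p = 1.0).

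DNMAML and GSI block the pathway at different steps, and each was compared with the same MigR1-DMSO arrays, so their effects are given side by side without a test of likeness. GSI in MigR1 cells lowered 27 genes (0.135%) and raised 6 (0.0301%), and 63 and 19 with the replicate block. The count of 33 was between 15 and 21 in the 6 fits without 1 array of either group. Nrarp differed by -1.24 with DNMAML and by -1.21 with GSI, Dtx1 by -1.39 and -1.23, Myc by -1.40 and -1.50, Deptor by -1.06 and -1.06 and Capn5 by -1.26 and -1.22. Hey1 differed by -0.57 with DNMAML and -1.0 with GSI, and Il2ra by -1.36 and -0.76. For rises the pairs were 2.28 and 0.57 for Cpa3, 1.92 and 0.42 for Sla, 1.45 and 0.08 for Slc7a8 and 2.87 and 1.50 for Ccr8.

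DNMAML-DMSO was then set directly against MigR1-GSI. Here 6 genes were higher with DNMAML (0.0301%) and 0 lower, with 1283 genes at an unadjusted p under 0.05. With the replicate block 97 were higher and 24 lower, and after a second quantile normalization 24 and 16. The count was 3 without MigR1-GSI replicate 3. The 6 were Cpa3 (1.71, SE 0.26, adjusted p = 0.00593), Sla (1.50, adjusted p = 0.0133), Slc7a8 (1.37, adjusted p = 0.00162), Aff3 (1.31, adjusted p = 0.00245), Ctsd (0.84, adjusted p = 0.0392) and Ahnak (0.68, adjusted p = 0.0125). Ahnak, a giant scaffold protein, read 7.26, 7.36 and 7.55 in MigR1-DMSO and 7.88, 8.02 and 8.06 in DNMAML-DMSO. Notch targets were not called between these groups, and their intervals show what the data allow. The 95% interval of the difference was -0.25 to 0.19 for Nrarp, -0.59 to 0.26 for Dtx1, -0.33 to 0.54 for Myc and -0.33 to 0.31 for Deptor. For Il2ra the difference was -0.60 (95% interval -0.89 to -0.30, adjusted p = 0.163, and 0.0350 with the block). For Hey1 it was 0.43 (95% interval 0.21 to 0.65, adjusted p = 0.208, and 0.0364 with the block), so these 2 targets lay on opposite sides of 0. Other intervals left out 0 as well, for Notch3 (-0.71 to -0.15), Mfsd2a (0.08 to 0.77), Gata3 (0.16 to 0.61) and Lztfl1 (0.23 to 0.75). Those of Hes1 and Runx1 spanned 0.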

How the data were processed

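RNA of 24 samples, 3 in each of 8 groups, was hybridised to Affymetrix mouse arrays. The authors deposited log2 expression values for each probe set, and these were used unchanged. The submitters' processing notes name the tools oligo and limma, and the sources used here do not state the background correction or normalization. Values ranged from 1.28 to 13.47, which fits a log2 scale.

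The table held 35556 probe sets. The annotation gave a single symbol to 21789, more than 1 to 1621 and none to 12146, and 21698 of the first kind were found in RefSeq. For 999 genes with several probe sets the one with the greatest mean level across the 24 arrays was taken, which left 19938 genes with no filter on dim ones.

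The model was fitted in limma 3.58.1 (R 4.3.3) with 8 group means over all 24 arrays (16 residual and 6.56 prior degrees of freedom), two-sided moderated tests and Benjamini-Hochberg adjustment over all genes. The fit was tested on simulated data. Same-numbered samples of DNMAML-DMSO and MigR1-DMSO deviated together from their group means (r = 0.199, 0.114 and 0.478 across genes), and in the other comparisons every such r was at least 0.106. The numbers in the titles were therefore taken as pairs, and counts from fits with the replicate number as a block are given beside those they move by over 1.5 times.

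The text names up to 15 called genes each way with the largest change and separate arrays (no clone names, small RNAs or receptor segments), every called Notch target and up to 6 called genes of each other list. The members and lists were chosen with earlier results of these data known. Small RNA genes, their containing genes, sialyltransferases, Arntl, Ahnak and the examples that were not called were chosen after their values were seen. Alternatives were other samples, scaling, probe set choices, a filter on dim genes, array weights and arrays left out.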

Additional observations from a re-analysis of the deposited data

Results flagged for a closer look

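The DNMAML effect on Nrarp differed between treatments, by -1.32 on the log2 scale between DMSO and GSI (limma, adjusted p = 0.000199). All 3 DNMAML-DMSO arrays were below all MigR1-DMSO arrays, while the groups under GSI overlapped near the array medians. It was the only gene among 19938 that passed this test. Both groups under GSI were close to background, so a fall there could not have been measured, and the size of the difference of effects depends on that level.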

How the results depend on the processing

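The count of 386 genes changed by DNMAML in DMSO was 934 with the replicate block, 591 after a second quantile normalization, 191 with array medians centred, 834 with array weights, and 11 to 318 with 1 or more arrays left out. The count of 38 under GSI was 5 in a fit of the groups compared alone, 16 there with the replicate block, 163 with the block over all arrays, 77 after quantile normalization, 9 with centring, 90 with array weights and 0 to 23 with arrays left out. The count of 1 gene whose effect differed was 2 with the replicate block in the groups compared, 4 with the block over all arrays, 2 with trend and robust moderation, 2 with array weights and 0 to 3 with arrays left out. The count of 33 for GSI in MigR1 cells was 4 in the groups alone, 82 with the block, 52 after quantile normalization, 17 with centring, 51 with array weights and 2 to 21 with arrays left out. The count of 6 between DNMAML-DMSO and MigR1-GSI was 121 with the block, 40 after quantile normalization, 27 without dim genes, 11 with trend and robust moderation, 28 with array weights and 0 to 8 with arrays left out. The causes were not tested. The sign turned for 2 genes that were not called. Maml2 was 0.0058 with array weights and ranged from -0.17 to 0.0717 with 1 array left out, the highest without MigR1-DMSO replicate 3, and was 0.0046 without DNMAML-DMSO replicate 1. Maml3 ranged from -0.16 to 0.029 with 1 array left out, the highest without DNMAML-DMSO replicate 2. Of 106 named genes called in DMSO, the replicate block lost 0, array weights 0, quantile normalization 1, a fit of the 2 groups alone 15 and centring 31, and 39 lost the call in at least 1 of the 6 fits without 1 array. Over all 111 named genes the block lost 0 calls and added 1 in DMSO (Notch1), 24 for DNMAML under GSI, 13 for GSI in MigR1 cells, 31 between DNMAML-DMSO and MigR1-GSI and 3 for the difference of effects. The sign changed for 0 of the 106 in these settings. Values near the array medians leave little room to measure a fall.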
